A study of Drosophila melanogaster with 15 samples.

Results

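The genes described here encode structural proteins of the cuticle of the fruit fly Drosophila melanogaster. They were chosen by name alone: every symbol in the deposited count tables that begins with Cpr and a digit, Lcp65, Lcp9, Ccp84, Pcp, Acp65, Edg or Twdl, with the larval genes Lcp1 to Lcp4 left out. Of 15682 gene symbols, 120 matched, and 110 of these had at least 1 read in the 15 libraries. The 110 genes comprised 69 Cpr genes, 22 Tweedle (Twdl) genes, 10 genes of the Lcp65 group (with Acp65Aa and Lcp9), 5 Ccp84 genes, 3 Edg genes and Pcp. The 10 matching symbols without a read were Ccp84Ad, Ccp84Ae, Cpr57A, Lcp65APsi, Lcp65Aa, Lcp65Af, TwdlJ, TwdlL, TwdlO and TwdlR.

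Insect cuticle is a layered matrix of chitin fibres and proteins that epidermal cells secrete at their outer face, and the corneal lens of the eye, the lining of the tracheae and the lining of the fore- and hindgut are cuticle as well. Most Cpr, Lcp65 and Ccp84 proteins carry the Rebers-Riddiford consensus, which binds chitin, whereas Tweedle proteins form a separate family. Larval, pupal and adult cuticle are built from different sets of these proteins, and pulses of the moulting hormone ecdysone time their production. Dpp is a secreted signal of the bone morphogenetic protein (BMP) family that patterns many fly tissues.

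The libraries were made from total RNA, kept stranded, of dissected tissue labelled skeletal muscle, and all of them came from the w1118 strain background. There were 5 groups of 3 libraries: flies overexpressing dpp, flies with dpp RNAi construct #1, flies with dpp RNAi construct #2, flies with a control RNAi, and control flies without an RNAi construct named. The treatment field reads RNAi for all 15 libraries, the overexpression and control libraries included. The transgene driver, the age and sex of the flies, the target of the control RNAi and whether the libraries of a group came from separate flies are not given in the sources used here, so p-values measure the spread between these libraries, which may be technical.

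Total gene counts ran from 11244899 to 22400963 in the 6 dpp RNAi libraries and from 25537295 to 56290808 in the other libraries. Levels are given as CPM, reads per 1e+06 reads counted in genes, scaled by TMM factors. dpp itself had 51.7 to 77.2 CPM with overexpression, against 29.3 to 35.1 CPM in the other 12 libraries, with no lower level under either dpp RNAi label. The groups are therefore called by their labels, and every direction below is that of the libraries labelled dpp RNAi. The photoreceptor rhodopsin gene ninaE had 30800 to 40900 CPM, against 1240 to 3430 CPM of the muscle myosin gene Mhc, so that eye RNA was present beside muscle RNA. None of the markers of muscle, eye, neuron, epidermis, trachea, antenna and taste hair, fat body or gut that were looked at was without reads in any group. The sum of 20 muscle markers was 8540 to 14600 CPM in the dpp overexpression, dpp RNAi and control groups and 4820 to 4960 CPM with control RNAi. Library codes in the labels form 3 blocks, and both dpp RNAi groups share 1, overexpression and control share another, and control RNAi has its own, so that in each comparison of a dpp RNAi group with either control the block and the label cannot be told apart. The third overexpression library stood apart from its group (chi-square per degree of freedom 52.1 and 60.6 against the other 2 libraries, which gave 19.4 between them). In such bulk RNA, fewer cells of a type and less RNA per cell cannot be told apart.

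A few cuticle genes carried most of the RNA. Averaged over the 15 libraries, 3 genes had at least 100 CPM, 13 at least 10 CPM, 30 at least 1 CPM, and 53 of the 110 under 0.1 CPM. Cpr65Au alone held 33.7% of the summed CPM of the 110 genes, and together with Cpr72Ec and Cpr67B it held 69.0%. The highest were Cpr65Au (335 CPM), Cpr72Ec (237), Cpr67B (114), Cpr49Ae (51.7), Cpr73D (50.6), Cpr62Bb (28.2), Cpr47Ee (24.9), TwdlG (17.9), Cpr11B (17.2) and Cpr76Bc (14.3). Cpr72Ec is known as a protein of the fly corneal lens. Per kilobase of coding sequence, a scale for a rough comparison between genes, Cpr65Au, whose coding sequence has 318 bases, stood further ahead at 1050 CPM per kb. It was followed by Cpr72Ec (184), Cpr67B (146) and Cpr49Ae (129). Counts per gene may include reads outside the coding sequence, which can raise genes with a short one on this scale.

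The Lcp65, Ccp84, Edg and Pcp genes, named for larval cuticle, for a cuticle cluster, for ecdysone dependence and for pupal cuticle, had no more than 11.9 CPM in any library. The most abundant of the Lcp65 group was Lcp65Ag2, with 8.78, 9.17 and 9.68 CPM in control libraries. Per kilobase of its short coding sequence it was not low: it ranked 10 at 23.7 CPM per kb, beside Cpr47Ee (22.5) and TwdlG (21.5). Ccp84Ag stayed under 0.5 CPM in all 15 libraries.

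**Figure D1:**
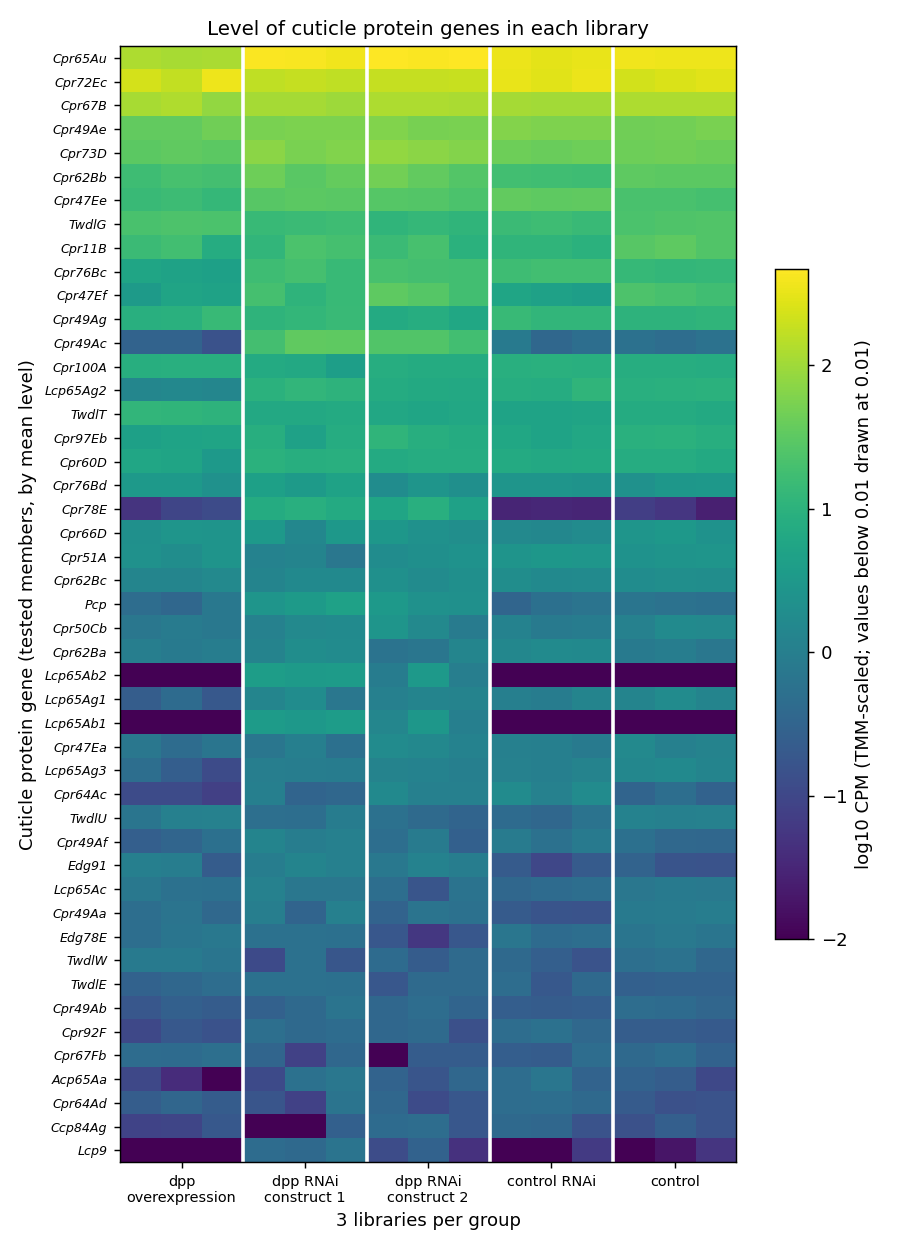
Level of the 47 tested cuticle genes (rows, from the highest to the lowest mean) in each of the 15 libraries (columns, 3 per group), as log10 of TMM-scaled CPM. The top rows stay bright in every group, while Cpr49Ac, Cpr78E, Lcp65Ab1 and Lcp65Ab2 are dark outside both dpp RNAi groups.

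A filter on low counts left 47 of the 110 genes for testing, 30 of them Cpr genes, 8 of the Lcp65 group and 5 Twdl genes. The other 63 had 1 to 102 reads in all libraries together (median 9) and no more than 0.212 CPM on average. The filter asked for about 0.315 CPM in 3 libraries. 4 genes, Cpr78E, Lcp65Ab1, Lcp65Ab2 and Lcp9, passed it through dpp RNAi libraries only, Lcp9 through those of construct 1 alone. Such genes had to differ between groups, and the counts of called genes below describe the tested genes, not all 110. A gene was called where its adjusted p was under 0.05 in edgeR's quasi-likelihood test, with p-values adjusted over all 10668 tested genes.

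With dpp overexpression, more cuticle genes were called lower than higher against control flies, and most were not called. Of the 47 tested genes, 19 fell, where 16.2% of all tested genes were called lower, and 2 rose, where 13.4% of all tested genes were called higher; the other 26 were not called. The median log2 difference was -0.33 over the 47 genes and -0.01 over all tested genes. The summed level of the 110 genes was 642 to 773 CPM with overexpression and 1030 to 1080 CPM in control. Without the most abundant gene the sums were 527 to 655 CPM with overexpression and 659 to 718 CPM in control, so that even without it the groups did not overlap.

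The most abundant cuticle gene was among those that fell. Cpr65Au had 125, 115 and 118 CPM with overexpression, against 375, 359 and 363 CPM in control. All 3 overexpression libraries were far below every other library of the study, the lowest of which had 297 CPM. The log2 difference from control was -1.62 ± 0.07 (SE, adjusted p = 5.03e-11).

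The 3 Lcp65Ag genes, larval cuticle genes that lie beside Cpr65Au, fell as well. Lcp65Ag2 had 1.38, 1.54 and 1.38 CPM with overexpression, against 8.78, 9.17 and 9.68 CPM in control (log2 difference -2.67 ± 0.14, adjusted p = 9.31e-10). Lcp65Ag1 had 0.239, 0.423 and 0.192 CPM, against 1.3, 1.83 and 1.26 CPM in control (-2.29 ± 0.29). Lcp65Ag3 had 0.478, 0.25 and 0.115 CPM, against 1.47, 1.65 and 1.26 CPM in control (-2.21 ± 0.26). For none of the 3 did any overexpression library reach the lowest of the other 12 libraries. The numbered copies Lcp65Ag1 to Lcp65Ag3, like Lcp65Ab1 and Lcp65Ab2, may share reads that the counting could split or drop, so that the value of each copy on its own is uncertain.

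Of the 30 tested Cpr genes, 16 fell. Cpr47Ef had 3.58, 5.27 and 4.87 CPM with overexpression, against 22.8, 20.8 and 17.5 CPM in control (-2.17 ± 0.24, adjusted p = 2.46e-05). Cpr76Bc had 5.48, 4.92 and 4.45 CPM with overexpression, against 13.3, 12.5 and 13 CPM in control (-1.37 ± 0.1, adjusted p = 3.39e-08). In both cases the groups were far apart. Smaller falls with groups that did not overlap were those of Cpr47Ea (-1.15 ± 0.23), Cpr97Eb (-0.89 ± 0.16), Cpr62Bb (-0.76 ± 0.17), Cpr47Ee (-0.48 ± 0.08) and Cpr73D (-0.45 ± 0.09), of which Cpr97Eb was picked for mention after its values were seen. Cpr64Ac (-1.75 ± 0.47) and Cpr11B (-1.06 ± 0.3) were also lower. The calls of Cpr64Ac, Cpr11B, Cpr50Cb, Cpr49Ab, Cpr49Aa and Cpr62Bc ended when the second control library was left out, with log2 differences of -1.47, -0.97, -0.77, -0.85, -0.77 and -0.45 in that fit, which leaves 13 genes called lower.

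Of the other 2 most abundant genes, neither was called. Cpr72Ec had 236, 176 and 357 CPM with overexpression, against 226, 250 and 287 CPM in control, and its overexpression libraries lay on both sides of the control libraries (0.01 ± 0.19). Cpr67B had 115, 129 and 83.7 CPM with overexpression, against 123, 126 and 127 CPM in control (-0.19 ± 0.11).

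The 2 genes that rose were TwdlT and Edg91. The Tweedle gene TwdlT had 12, 11.6 and 10.5 CPM with overexpression, against 7.46, 7.5 and 6.74 CPM in control (0.66 ± 0.08, adjusted p = 6.26e-06), and its overexpression libraries were above all other libraries of the study. Edg91, an ecdysone-dependent gene of pupal cuticle, had 1.06, 0.942 and 0.23 CPM with overexpression, against 0.308, 0.165 and 0.157 CPM in control (1.9 ± 0.4, adjusted p = 0.00197). The third overexpression library lay within the range of control, so the groups overlapped, and the log2 difference was 2.2 without that library. Without that library, 17 cuticle genes were called lower and 2 higher.

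Set against all 12 other libraries, and not only against control, the 3 overexpression libraries were lowest for 12 of the 47 genes (25.5%, compared with 8.94% of all tested genes). They were highest for 2 of the 47, TwdlT and TwdlW (4.3%, compared with 9.24% of all tested genes). These counts are a description added after the values were seen and carry no test.

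**Figure D2:**
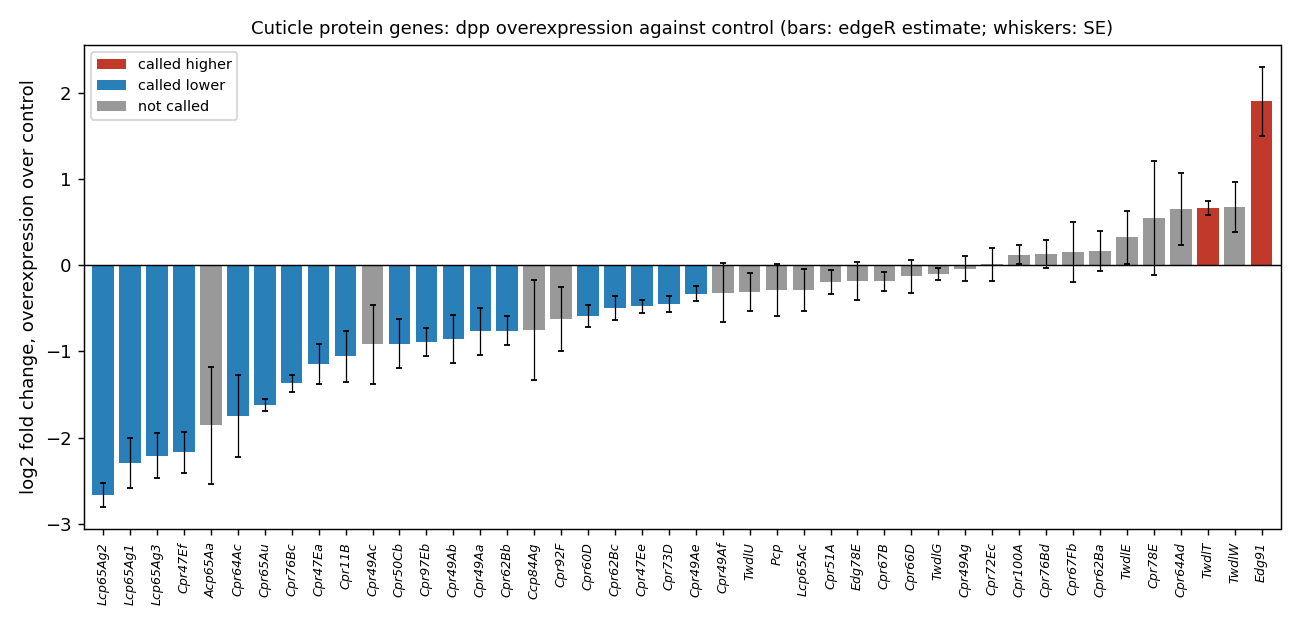
Log2 difference between dpp overexpression and control for tested cuticle genes (bars, edgeR estimate; whiskers, SE), ordered by size and coloured by call. Lcp65Ag2, at -2.67, is at the left end and Edg91, at 1.9, at the right end; Lcp65Ab1, Lcp65Ab2 and Lcp9, with 3 reads or fewer in each group, are not drawn.

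Other epidermal genes moved with overexpression too. Of 8 epidermal markers, 6 fell and 2 were not called, among them vvl (-0.62) and grh (-0.59), which encode transcription factors of the epidermis, and their sum was 568 to 633 CPM with overexpression and 724 to 748 CPM in control. Of 8 antenna and taste hair markers, 7 fell, and their sum was 554 to 705 CPM with overexpression and 1180 to 1340 CPM in control. The sum of 20 muscle markers overlapped between the groups, at 10200 to 12400 CPM with overexpression and 10200 to 11500 CPM in control. The part of these markers in the lower cuticle genes was not tested.

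Genes listed for the hardening and colouring of cuticle were lower with overexpression in more cases than higher. The libraries also held eye and neuron RNA, and the tissue in which these genes were lower was not tested. Of 19 tested tanning and pigmentation genes, 10 fell and 2 rose, with a median log2 difference of -0.35. The genes that fell included ple (-0.94), which encodes tyrosine hydroxylase, laccase2 (-0.54), which encodes the phenoloxidase of sclerotization, b (-0.98) and e (-0.78) for beta-alanine synthesis and its coupling to dopamine, and yellow-e (-1.97). Of 26 tested genes of chitin synthesis and cuticle assembly, 8 fell and 6 rose, with a median of -0.08. Among those that fell were knk (-0.45), needed for chitin organisation, and the chitin deacetylase Cda4 (-1.91), and among those that rose was mmy (0.58), for making the chitin precursor. Of 25 tested ecdysone and moulting genes, 5 rose and 2 fell, with a median of 0.02.

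In the libraries labelled dpp RNAi, a handful of cuticle genes stood out by level rather than a family as a whole. All 6 dpp RNAi libraries were above all 6 libraries of control RNAi and control for 8 of the 47 tested genes (17%, compared with 3.04% of all tested genes): Cpr65Au, Cpr73D, Cpr49Ac, Cpr78E, Pcp, Lcp65Ab1, Lcp65Ab2 and Edg91. All 6 were below for 1 gene, Cpr72Ec (2.1%, compared with 4.23% of all tested genes). These counts were also added after the values were seen, and 3 of the 8 genes passed the filter through dpp RNAi libraries only.

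The larval cuticle genes Lcp65Ab1 and Lcp65Ab2 had reads in both dpp RNAi groups and in no other library. Lcp65Ab1 had 3.64, 3.04 and 3.78 CPM with construct 1 and 1.41, 2.95 and 1.06 CPM with construct 2, and 0 reads in all 3 libraries of each of overexpression, control RNAi and control. Lcp65Ab2 had 4.04, 3.45 and 3.69 CPM with construct 1 and 0.92, 3.42 and 1.01 CPM with construct 2, and likewise 0 reads elsewhere. With 3 reads over the group as the limit that a count of 0 allows, Lcp65Ab1 under construct 1 exceeded control RNAi at least 111-fold and control at least 172-fold. Under construct 2 its bounds were at least 55.6-fold over control RNAi and at least 86.4-fold over control. Lcp65Ab2 under construct 1 was at least 119-fold higher than with control RNAi and at least 186-fold higher than in control. Under construct 2 its bounds were at least 55-fold and 85.5-fold. These limits cover counting error only. The 6 dpp RNAi libraries that held these reads were the shallowest of the study.

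Cpr78E had 7.51, 8.73 and 7.11 CPM with construct 1 and 5.46, 8.75 and 4.69 CPM with construct 2, against 0.0308, 0.0328 and 0.031 CPM with control RNAi, where each library held 1 read, and 0.0724, 0.055 and 0.0262 CPM in control. The groups were far apart in every library. In reads, these were 322 with construct 1 and 342 with construct 2, against 3 with control RNAi and 8 in control. The fitted log2 difference from control was 7.07 with construct 1 and 6.76 with construct 2, given as a description, since the gene entered the test through its dpp RNAi libraries only.

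Cpr49Ac, one of a row of Cpr genes on chromosome arm 2R, had 19, 34 and 32 CPM with construct 1 and 25.3, 25.2 and 18.3 CPM with construct 2. It had 0.802, 0.361 and 0.496 CPM with control RNAi and 0.561, 0.458 and 0.577 CPM in control. The log2 difference from control RNAi was 5.65 ± 0.29 with construct 1 (adjusted p = 3.32e-08) and 5.35 ± 0.29 with construct 2 (adjusted p = 3.12e-08), and that from control was 5.72 ± 0.27 and 5.43 ± 0.27. With overexpression the gene had 0.307, 0.308 and 0.153 CPM, below both controls in every library, but the difference from control was not called (-0.92 ± 0.46, adjusted p = 0.152).

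Genes of pupal cuticle were among those higher as well. Pcp had 2.69, 3.45 and 4.68 CPM with construct 1 and 3.31, 2.32 and 2.25 CPM with construct 2, against 0.339, 0.525 and 0.621 CPM with control RNAi and 0.651, 0.587 and 0.525 CPM in control. Its log2 difference from control RNAi was 2.83 ± 0.29 with construct 1 (adjusted p = 1.32e-05) and 2.39 ± 0.29 with construct 2 (adjusted p = 1.95e-05). Edg91 had 0.953, 1.28 and 1.08 CPM with construct 1 and 0.736, 1.16 and 0.965 CPM with construct 2, against 0.216, 0.0984 and 0.217 CPM with control RNAi and 0.308, 0.165 and 0.157 CPM in control. Its log2 differences from control RNAi were 2.59 ± 0.53 and 2.4 ± 0.51. The other tested Edg gene, Edg78E, did not share this pattern: it had 0.56, 0.561 and 0.54 CPM with construct 1 and 0.184, 0.0579 and 0.184 CPM with construct 2, against 0.679, 0.426 and 0.496 CPM with control RNAi. It fell with construct 2 (-1.86 ± 0.4, adjusted p = 0.00184) and was not called with construct 1 (0.05 ± 0.32).

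Lcp9 was higher with construct 1 only on few reads. It had 20 reads over the 3 construct 1 libraries and 8 over those of construct 2, against 2 with control RNAi and 3 in control. The ratio of construct 1 was 23-fold to control RNAi (95% counting interval 5.58 to 203) and 23.8-fold to control (7.06 to 125). With construct 2 the gene was not called against either control. As Lcp9 passed the filter through construct 1 libraries only, its calls and this contrast between the constructs are given as a description.

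2 abundant genes showed small rises. Cpr65Au had 443, 429 and 379 CPM with construct 1 and 469, 437 and 452 CPM with construct 2, against 340, 297 and 328 CPM with control RNAi and 375, 359 and 363 CPM in control. Its log2 difference from control RNAi was 0.38 ± 0.06 with construct 1 (adjusted p = 0.000546) and 0.49 ± 0.06 with construct 2 (adjusted p = 3.05e-05). Against control it was 0.19 ± 0.06 with construct 1, a call that ended when, for example, the first construct 1 library was left out (0.14), and 0.31 ± 0.06 with construct 2. Cpr73D had 72, 54.6 and 61 CPM with construct 1 and 80.8, 71.5 and 63.9 CPM with construct 2, against 43, 40.4 and 43.3 CPM with control RNAi and 43.1, 46 and 42.5 CPM in control. Its log2 difference from control RNAi was 0.57 ± 0.09 with construct 1 and 0.77 ± 0.09 with construct 2.

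The corneal lens gene Cpr72Ec had 165, 181 and 165 CPM with construct 1 and 184, 182 and 190 CPM with construct 2, against 323, 290 and 346 CPM with control RNAi and 226, 250 and 287 CPM in control. It fell against control RNAi (-0.91 ± 0.2, adjusted p = 0.00528, with construct 1, and -0.79 ± 0.19, adjusted p = 0.00698, with construct 2). Against control it was not called (-0.58 ± 0.2, adjusted p = 0.0502, and -0.46 ± 0.19, adjusted p = 0.0864). Another corneal lens gene, retinin, is not among the 110 and averaged 277 CPM with construct 1 and 265 CPM with construct 2, against 568 CPM with control RNAi and 594 CPM in control. Retinin was picked for mention after its values were seen. Lens genes were not looked at as a set, so no fall of lens genes in general is shown. Of 14 photoreceptor and eye markers, 4 fell with construct 1 and 10 with construct 2 against control RNAi, and their sum was 84500 to 93300 CPM with construct 1 and 71100 to 80100 CPM with construct 2, against 84400 to 88500 CPM with control RNAi. Against control, 4 of these markers rose and 1 fell with construct 1 and 1 rose and 6 fell with construct 2, and the control sum was 79100 to 86800 CPM. The part of eye tissue in this difference was not tested.

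**Figure D3:**
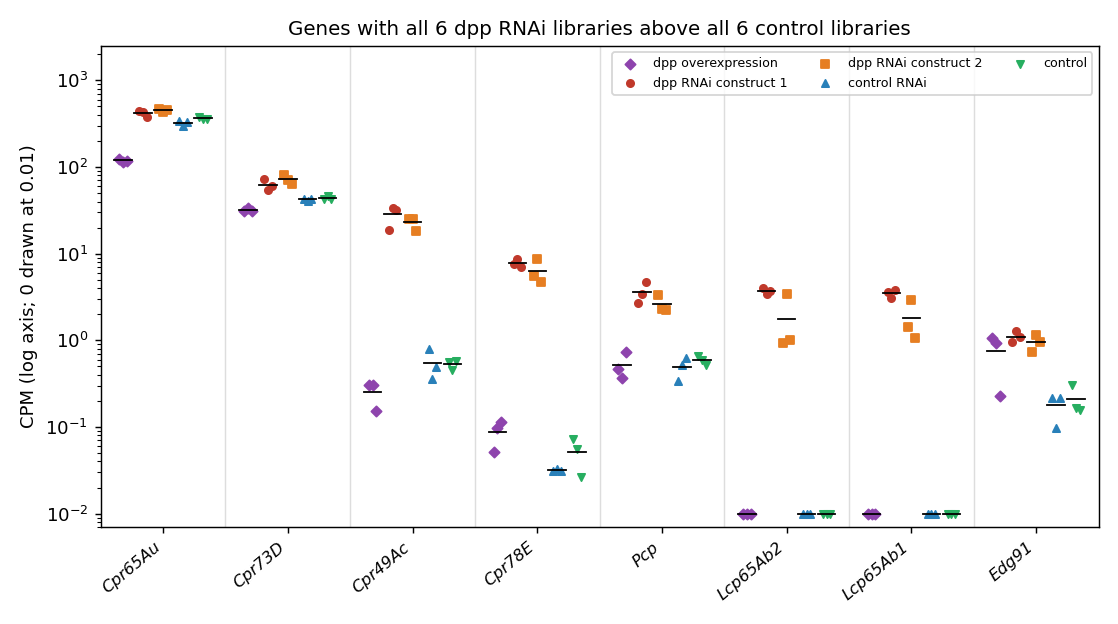
CPM (log axis, 0 drawn at 0.01) of the 8 cuticle genes for which all 6 dpp RNAi libraries were above all 6 control libraries; points are libraries and black lines group means. Cpr65Au and Cpr73D differ little between groups, whereas Cpr49Ac, Cpr78E, Lcp65Ab1 and Lcp65Ab2 differ by more than an order of magnitude.

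Over the tested genes, the comparisons with the 2 controls gave different counts. Against control RNAi, 17 of the 47 genes rose with construct 1, where 13.1% of all tested genes were called higher, and 4 fell, where 12.6% were called lower. With construct 2, 12 rose against control RNAi and 7 fell, where 21% of all tested genes were called higher and 20.3% lower, so that the share of cuticle genes called with construct 2 (25.5% higher, 14.9% lower) was close to that of all genes. Against control, 14 rose and 4 fell with construct 1 (12.8% and 11.7% of all tested genes), and 11 rose and 7 fell with construct 2 (18.3% and 17.9% of all tested genes). Each count of rises includes Cpr78E, Lcp65Ab1 and Lcp65Ab2, and those of construct 1 also include Lcp9. These genes passed the filter through dpp RNAi libraries only, which favours a rise. The counts of rises are therefore a description and carry no test against the shares of all genes. The median log2 difference over the 47 genes was 0.28 with construct 1 and 0.15 with construct 2 against control RNAi, and 0.19 with construct 1 and 0.14 with construct 2 against control. The genes that fell with construct 1 against control RNAi were Cpr72Ec, Cpr51A (-1.39 ± 0.2), Cpr100A (-0.55 ± 0.13) and Cpr64Ac (-1.29 ± 0.37; -1.01 and not called without the second construct 1 library). The comparisons share libraries, and only that of construct 1 with control RNAi and that of construct 2 with control, or the reverse pairing, rest on separate ones. The 17 genes that rose with construct 1 against control RNAi and the 11 that rose with construct 2 against control had 8 in common (47.1% of the 17 and 72.7% of the 11), and these were the 8 genes named above, of which Cpr78E, Lcp65Ab1 and Lcp65Ab2 passed the filter through dpp RNAi libraries only. Over all tested genes the same overlap was 22.8% of the genes higher with construct 1 against control RNAi and 16.3% of those higher with construct 2 against control.

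Some rises against control RNAi were not seen against control. Cpr47Ef had 19.7, 11.1 and 13.9 CPM with construct 1 and 32.2, 28 and 18.2 CPM with construct 2, against 5.55, 4.66 and 4.1 CPM with control RNAi and 22.8, 20.8 and 17.5 CPM in control. Its dpp RNAi libraries were thus above control RNAi but overlapped those of control. Cpr62Bb had 43.4, 30.4 and 37.5 CPM with construct 1 and 46.8, 34.8 and 26.5 CPM with construct 2, against 18.1, 17.2 and 16.3 CPM with control RNAi and 33, 31.5 and 30.6 CPM in control, so that its dpp RNAi libraries were likewise above control RNAi and overlapped those of control. Cpr49Aa, at 0.32 to 1.08 CPM with construct 1 and 0.307 to 0.637 CPM with construct 2, had 0.155 to 0.216 CPM with control RNAi and 0.796 to 0.97 CPM in control. Its call with construct 2 against control RNAi ended without the second construct 2 library (1.29).

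A few rises lost their calls when single libraries were left out. Cpr60D, Cpr66D, Lcp65Ac and Cpr76Bd, whose rises with construct 1 against control RNAi were 0.41 ± 0.14, 0.72 ± 0.24, 1.03 ± 0.33 and 0.7 ± 0.19, lost their calls without the first construct 1 library (0.36, 0.46, 0.74 and 0.65). The call of Cpr60D ended whichever compared library was left out. That of Cpr66D also ended without the third construct 1 library or any control RNAi library. Lcp65Ac also lost its call without the first or the second control RNAi library, and Cpr76Bd without the third construct 1 library. Of these 4, Cpr76Bd was also called higher with construct 1 against control (0.62 ± 0.18, adjusted p = 0.022), and the others were not. That call of Cpr76Bd ended without the first (0.57) or the third (0.53) construct 1 library or without the first control library (0.48).

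Cell type markers moved in these comparisons as well. Against control RNAi, 17 of 20 muscle markers rose with each construct, and their sum was 8540 to 13500 CPM with construct 1 and 10500 to 14600 CPM with construct 2, against 4820 to 4960 CPM with control RNAi. Against control, 1 muscle marker rose and 1 fell with each construct, and the control sum was 10200 to 11500 CPM. Epidermal markers summed to 762 to 781 CPM with construct 1, 787 to 806 CPM with construct 2, 770 to 824 CPM with control RNAi and 724 to 748 CPM in control. Fat body markers summed to 8580 to 9990 CPM with construct 1 and 10900 to 12800 CPM with construct 2, against 9740 to 11300 CPM with control RNAi and 5080 to 6040 CPM in control. Their part in the cuticle genes was not tested.

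Other cuticle genes and genes of cuticle formation were looked at beside the 110. Lcp1, Lcp2, Lcp3 and Lcp4, larval cuticle genes left out by the rule, averaged 18.6 to 65.3 CPM with construct 1 and 10.6 to 43.7 CPM with construct 2, against no more than 0.334 CPM with control RNAi and 0.205 CPM in control. Of 18 tested genes of other structural cuticle and apical matrix proteins, 5 rose and 1 fell with construct 1 against control RNAi (median 0.04), and 5 rose and 4 fell with construct 2 (median 0.1). Of 19 tested tanning and pigmentation genes, 4 rose and 1 fell with construct 1 against control RNAi (median 0.05), and 10 rose with construct 2 (median 0.41). The greatest of these rises were those of yellow-d2 (7.39 and 6.5) and CG3759 (1.1 and 1.02), named as a multicopper oxidase in the annotation. Of 26 tested genes of chitin synthesis and cuticle assembly, 2 rose and 1 fell with construct 1 (median 0.03), and 6 rose and 2 fell with construct 2 (median 0.13), and the chitinase gene Cht3 rose with both (1.99 and 1.88). Of 25 tested ecdysone and moulting genes, 2 rose and 7 fell with construct 1, and 3 rose and 11 fell with construct 2, with medians of -0.16 and -0.19; the ecdysone receptor gene EcR was at -0.25 and -0.24. Against control, EcR was at 0.46 and 0.47, so that the direction depended on which control was used.

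The 2 constructs differed in few cuticle genes. With construct 1, 5 of the 47 genes were higher than with construct 2, where 5.67% of all tested genes were called higher, and 1 was lower, where 6.36% were called lower. Edg78E was higher with construct 1 by 1.91 ± 0.46 (adjusted p = 0.0128; 1.57 and not called without the second construct 2 library). Cpr76Bd had 4.48, 3.45 and 4.86 CPM with construct 1, against 1.9, 2.78 and 2.11 CPM with construct 2 (0.91 ± 0.21, adjusted p = 0.0094). Cpr49Ag had 11, 12.6 and 14.7 CPM with construct 1, against 7.12, 7.99 and 6.11 CPM with construct 2 (0.84 ± 0.17, adjusted p = 0.00642). The lower gene was Cpr51A, at 1.18, 1.28 and 0.72 CPM with construct 1, against 1.84, 2.09 and 2.43 CPM with construct 2 (-0.98 ± 0.21, adjusted p = 0.00771). Lcp65Ag2 (0.58 ± 0.14) and TwdlG (0.34 ± 0.09) were also higher with construct 1, and both calls ended without the second construct 1 library (0.49 and 0.32). Between the constructs the count of lower genes ran as high as 5 when single libraries were left out, in that case the first construct 1 library.

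Control RNAi and control, neither of which targets dpp by its label, differed in cuticle genes about as often as in other genes. With control RNAi, 8 of the 47 genes were higher than in control, where 20.9% of all tested genes were called higher, and 12 were lower, where 24.3% were called lower. Cpr49Aa had 0.216, 0.164 and 0.155 CPM with control RNAi, against 0.796, 0.88 and 0.97 CPM in control (-2.27 ± 0.35, adjusted p = 0.000101). Cpr47Ef differed by -2.1 ± 0.25, Cpr11B by -1.42 ± 0.31, TwdlU by -1.31 ± 0.26 and Cpr62Bb by -0.88 ± 0.17. Cpr64Ac had 1.76, 1.12 and 1.83 CPM with control RNAi, against 0.326, 0.495 and 0.289 CPM in control (2.05 ± 0.31, adjusted p = 7.39e-05). Cpr62Ba (0.96 ± 0.22) and Cpr47Ee (0.73 ± 0.08) were higher as well. Cpr64Ad (1.35 ± 0.41) and Cpr92F (1 ± 0.32) were called, but not without the second control library (1.22) or without the second control RNAi library (0.85). The sum of muscle markers was lower with control RNAi, with 18 of 20 called, and the library code blocks differ, and the part of either was not tested.

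The summed level of Tweedle genes was lower in all 3 groups with an RNAi construct named than in control. The 22 genes summed to 35.7 to 38.2 CPM with overexpression, 22 to 25.2 CPM with construct 1, 19.2 to 19.6 CPM with construct 2, 21.7 to 23.2 CPM with control RNAi and 32.4 to 34.6 CPM in control. Most of this was TwdlG, with 21.3, 23.6 and 22.6 CPM with overexpression, 13.8, 15.4 and 16.4 CPM with construct 1, 11.4, 12.9 and 11.6 CPM with construct 2, 15.6, 16.9 and 14.9 CPM with control RNAi, and 22.3, 24.6 and 25.4 CPM in control. Every library with an RNAi construct named was below every overexpression and control library. Overexpression and control also share a library code block that holds none of the RNAi groups, so that block and label cannot be told apart here. The share of all tested genes that separate in this way was not computed. Against control, TwdlG fell by 0.67 on the log2 scale with construct 1, by 1.01 with construct 2 and by 0.61 with control RNAi, while with overexpression it was not called. TwdlU, listed as a pseudogene in the current annotation, had 0.322 to 0.552 CPM with construct 2 and 0.361 to 0.59 CPM with control RNAi, against 1.1 to 1.19 CPM in control. With construct 1 it had 0.481 to 0.9 CPM, which overlapped the 0.666 to 1.11 CPM with overexpression. Its call with construct 1 against control ended with DESeq2 (-0.9) and when, for example, the first construct 1 library was left out (-0.76).

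Cuticle genes sit next to each other in the genome. In the fly annotation of release 6, whose build differs from the dm3 build of the deposited counts and which was used for gene order only, 76 of the 110 genes fell into 14 runs of 3 or more genes with at most 2 other coding genes between neighbours. By chromosome arm, 45 of the 110 genes were on 3L, 28 on 3R, 22 on 2R, 8 on X and 7 on 2L. The run with the most members, on 3L, held 16 counted genes, Acp65Aa and genes of the Lcp65 and Cpr65 names, 8 of which were tested. With overexpression, 4 of the 8 fell, and these, Lcp65Ag3, Cpr65Au, Lcp65Ag2 and Lcp65Ag1, are 4 neighbours in a row at an end of the run. Lcp65Ac, further along, was not called (-0.29 in the fit). Lcp65Ab2 and Lcp65Ab1, the pair with reads in the dpp RNAi groups only, lie beyond it with Cpr65Ax1 between them. Cpr65Ax1 had no more than 0.0579 CPM in any library. As Lcp65Ab2 and Lcp65Ab1 had no reads with overexpression or in control, they could not fall. Acp65Aa, near the other end of the run, had 8 reads with overexpression, against 33 in control (-1.86 ± 0.68, adjusted p = 0.0518). It was not called, but its 3 overexpression libraries were below the other 12, so a fall outside the 4 neighbours is left undecided.

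**Figure D4:**
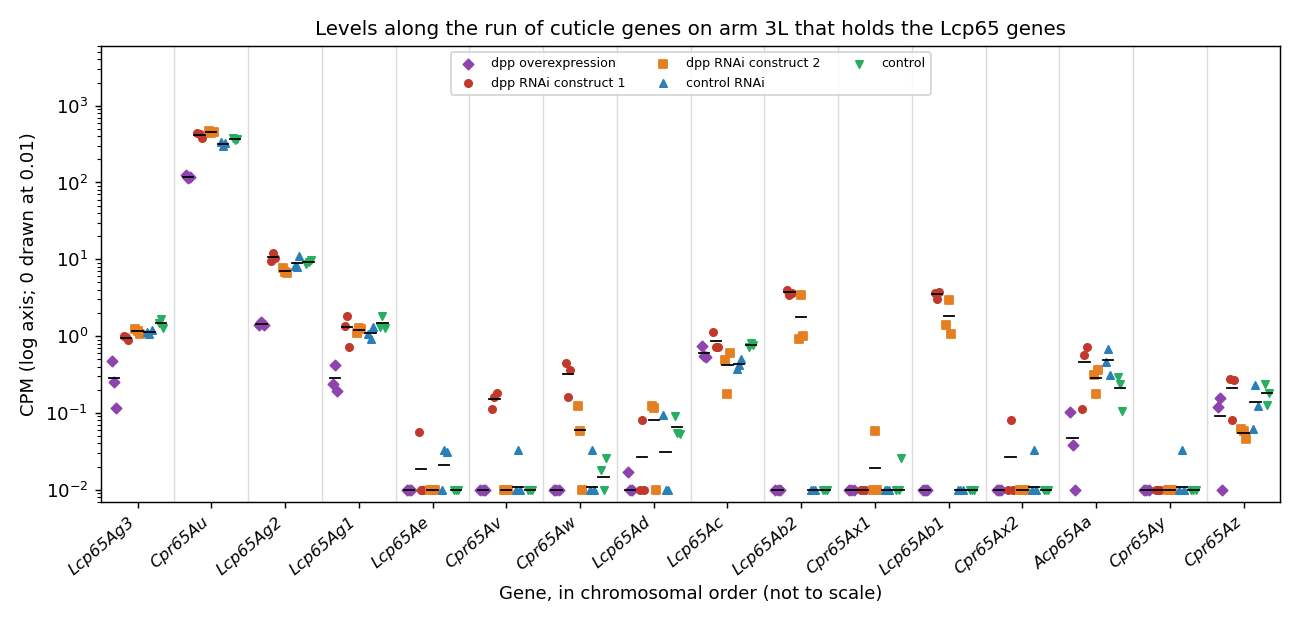
CPM (log axis, 0 drawn at 0.01) of the 16 counted genes of the run on 3L, in chromosomal order and not to scale; points are libraries and black lines group means. The 4 genes at the left are lower with overexpression, and Lcp65Ab2 and Lcp65Ab1 are above 0.9 CPM in both dpp RNAi groups and at 0 elsewhere.

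Neighbours did not always move together. In the run of 7 genes on 2R that holds Cpr49Ac, the nearest tested genes on either side, Cpr49Ab and Cpr49Ae, were not called in any comparison of a dpp RNAi group with either control. On few reads, Cpr49Ab had 0.28 to 0.63 CPM with construct 1 and 0.322 to 0.463 CPM with construct 2. This was above control RNAi (0.23 to 0.248 CPM) and overlapped control (0.341 to 0.471 CPM). Cpr49Aa was called higher with both constructs against control RNAi only, and Cpr49Af with construct 1 against control only. Cpr49Ag was called lower with construct 2 against both controls. Cpr49Ae had 53.9, 56.3 and 55.2 CPM with construct 1 and 60.2, 51.7 and 53.7 CPM with construct 2, against 63.1, 59.1 and 58.1 CPM with control RNAi and 45.9, 47.8 and 53.2 CPM in control. The difference was therefore more than an order of magnitude in Cpr49Ac and between -0.13 and 0.17 on the log2 scale in Cpr49Ae.

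Calls with overexpression and with dpp RNAi went in opposite directions for some genes and in the same direction for others. Overexpression against control and the constructs against control RNAi share no libraries. Of the 19 genes lower with overexpression, 6 were higher with construct 1 against control RNAi (31.6% of the 19 and 35.3% of the 17), where over all tested genes the overlap was 17.6% of the genes lower with overexpression and 21.8% of those higher with construct 1. The 6 were Cpr47Ef, Cpr49Aa, Cpr60D, Cpr62Bb, Cpr65Au and Cpr73D. With construct 2 the number was also 6, with Cpr97Eb in place of Cpr60D (31.6% of the 19 and 50% of the 12, compared with 37.2% and 28.7% over all tested genes). Against control, whose libraries the overexpression comparison shares, only Cpr65Au and Cpr73D of these 7 genes were called higher with either construct, while the values with construct 1 were -0.43 for Cpr47Ef, -0.1 for Cpr49Aa, 0.23 for Cpr62Bb and 0.29 for Cpr60D. In the same direction, both genes higher with overexpression, Edg91 and TwdlT, were higher with construct 1 against control RNAi, and Edg91 with construct 2. Cpr64Ac was lower with overexpression and, against control RNAi, with construct 1. Cpr47Ee and Lcp65Ag2 were lower with overexpression and, against control RNAi, with construct 2. Against control, Cpr64Ac and TwdlT were not called with construct 1, and with construct 2 Cpr64Ac was called higher and TwdlT lower. Cpr47Ee was called higher with both constructs against control, so that with construct 2 its direction depended on the control. The construct 2 calls of Cpr47Ee and TwdlT against control ended when some single libraries were left out. The difference between the effects was not tested. Of the Lcp65Ag genes, among the genes that fell most with overexpression, none was called higher with either construct against either control. Lcp65Ag2 was called lower with construct 2 against control RNAi (-0.37 ± 0.13, adjusted p = 0.0295) and against control (-0.39 ± 0.13, adjusted p = 0.0239). Both calls ended when, for example, the second construct 2 library was left out (-0.36 and -0.37).

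**Figure D5:**
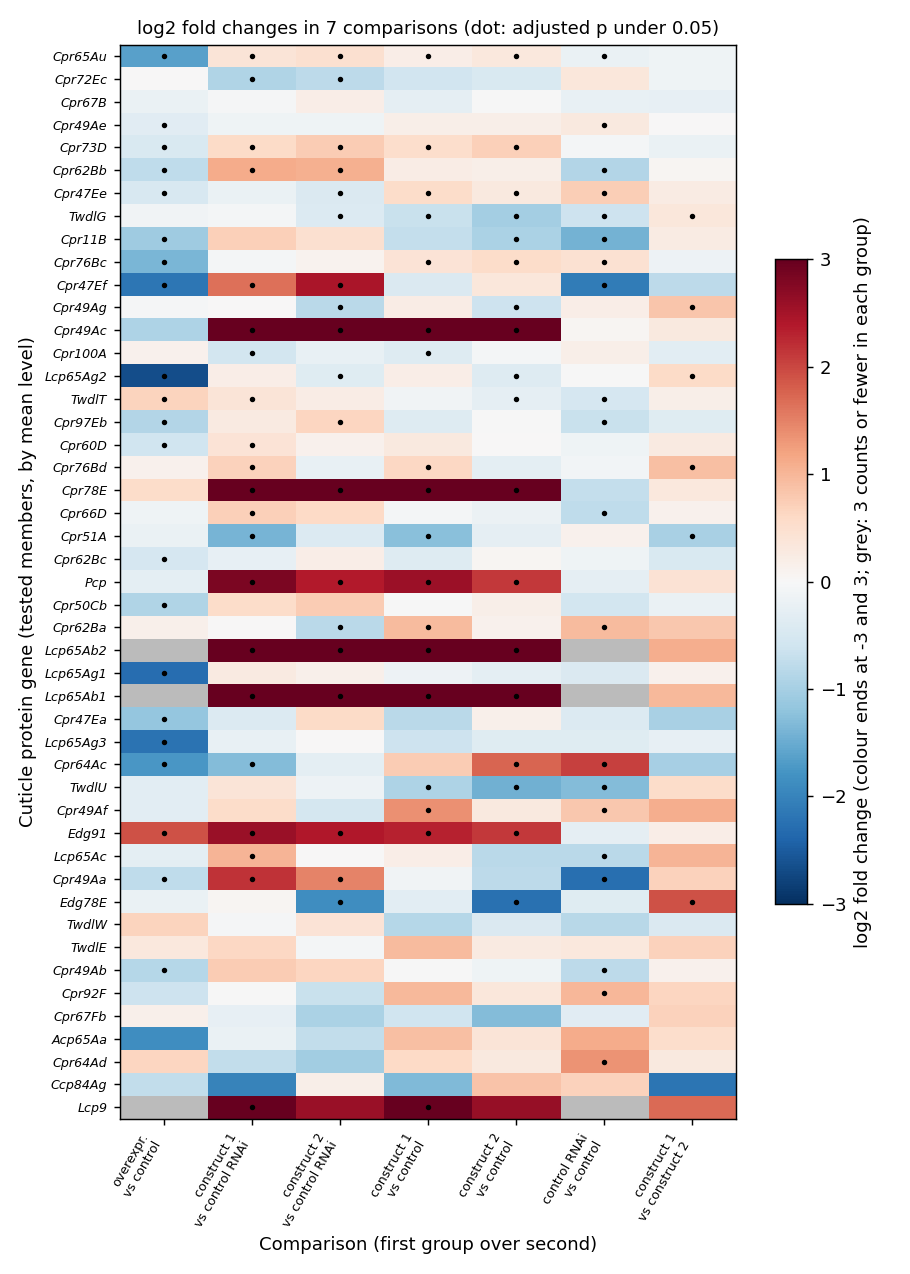
Log2 differences (colour, first group over second) of the 47 tested cuticle genes in the 7 comparisons, with a dot where the adjusted p was under 0.05; grey cells have 3 reads or fewer in each group. The overexpression column is mostly blue, and the 4 columns of dpp RNAi against a control share dark red rows for Cpr49Ac, Cpr78E, Pcp, Lcp65Ab2, Lcp65Ab1 and Edg91.

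Of the 47 tested genes, 6 were not called in any of the 7 comparisons: Cpr67B, TwdlW, TwdlE, Cpr67Fb, Acp65Aa and Ccp84Ag. This was 12.8% of the cuticle genes, compared with 22.1% of all tested genes. Cpr67B was the third most abundant cuticle gene and ranged from 83.7 to 129 CPM over all libraries. Acp65Aa, an adult cuticle gene, ranged from 0 to 0.72 CPM.

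The 63 genes below the filter had too few reads for firm statements. In a fit without the filter, 8 of them were called in at least 1 comparison, and these are named after their values were seen. With overexpression, Cpr78Cb had 25 reads, against 6 in control (2.04 ± 0.65, adjusted p = 0.0303), and Cpr11A had 4 reads, against 27 in control (-2.48 ± 0.71, adjusted p = 0.0154). The other 6 had groups with 3 reads or fewer, so only their reads are given. Among genes called higher, Ccp84Ab had 23 reads with construct 2, against 2 with control RNAi and 1 in control. Cpr65Aw had 14 reads with construct 1, against 1 with control RNAi and 2 in control. Cpr65Av had 6 reads with construct 1, against 0 in control, and Cpr12A had 7 with construct 1 and 5 with construct 2, against 0 with control RNAi but 7 in control. Among genes called lower, Edg84A had 0 reads with construct 2, against 13 with control RNAi and 10 in control, and Cpr65Ec had 0 with construct 2, against 11 with control RNAi and 11 in control, both called against control RNAi only. Most of the Twdl genes that lie in a large run on 3R had close to no reads. TwdlD, whose mutants have altered larval body shape, had 3 reads with overexpression, 0 with construct 1, and 2 in each of the other groups.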

How the data were processed

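The data were 15 tables of raw read counts per gene, 1 per library, as deposited by the authors. Per the submitters' processing notes, reads were handled with BWA, STAR and HTSeq on the dm3 build; versions, the annotation and the strand setting of the counting are not given in the sources used here. Summary lines of the counter, 14.48 to 20.93% of each table, were left out. CPM were computed with TMM factors. Tests used edgeR 4.0.16 (R 4.3.3): filterByExpr with a minimum count of 10, which kept 10668 of 15682 genes, 1 quasi-likelihood fit of all 5 groups with robust dispersions (10 residual degrees of freedom), and Benjamini-Hochberg adjustment over all tested genes. Alternatives were RLE factors, no filter, a replicate block, only the compared groups, DESeq2 1.42.0, and each library left out. The test was checked on simulated counts. Sums and library separations are descriptions.

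The cuticle genes and the gene lists were chosen with earlier results of these data known. Named genes were, per comparison, called genes whose libraries did not overlap, up to 8 in each direction, the 10 most abundant, and the most abundant of each family; other genes named were chosen after their values were seen. The replicate numbers did not pair the libraries: correlations of same-numbered deviations were -0.11 to 0.25. Promoter and protein sequences were not used here.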

Additional observations from a re-analysis of the deposited data

How the results depend on the processing

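All 123 calls of cuticle genes kept their direction in every alternative that was run, and 15 of them were lost under some alternative other than leaving out a library. Among these were Cpr49Aa and Cpr49Ab with overexpression, which were not called by DESeq2 (-0.78 and -0.86). Leaving out single libraries ended 36 of the calls at least once. Counts of called cuticle genes stayed within 1.5 times the reported value under RLE factors, without the filter, in the fit of the compared groups only, with DESeq2 and with the replicate block, except for genes lower with construct 1 than with construct 2: 1 as reported, but 3 with the replicate block, 2 with the compared groups only and 2 with DESeq2. The replicate numbers do not pair the libraries, and the replicate block otherwise moved no count of calls by over 1.5 times: 2 higher and 18 lower with overexpression, 16 and 4 with construct 1 and 12 and 7 with construct 2 against control RNAi. With single libraries left out, genes lower with construct 1 than with construct 2 numbered 1 to 5, genes higher 3 to 8, and all genes called 619 to 1243, against 1283 as reported. Genes lower with construct 1 than in control numbered 2 to 5 (2 without the first control library), and genes lower with construct 2 than in control 4 to 6 (4 without the second control library). Genes lower with overexpression numbered 13 to 19. Depth limits the 63 untested genes, for which 3 reads correspond to 0.0533 to 0.267 CPM per library.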
